A study of Mus musculus with 6 samples.

Results

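The genes described here are 35 genes of cholesterol and fatty acid synthesis, chosen by name from the 49548 genes of the deposited table. They were chosen with earlier results of these data known. They comprise 17 enzymes of sterol synthesis, 5 regulators of the pathway, 10 enzymes that make or modify fatty acids and 3 genes of cholesterol efflux. All 35 were measured by 3′ mRNA sequencing (QuantSeq, which reads the 3′ end of polyadenylated transcripts) in 6 libraries of cancer-associated fibroblasts (CAFs), 3 of Col6a1+ and 3 of Col6a1− CAFs. The comparison asks how the CAFs in which Col6a1-Cre had been active differ from the other CAFs of the same kind of tumor.

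Both groups came from colonic adenomas of C57/BL6 mice that carried Col6a1-cre and the Rosa26-mTmG reporter and had received AOM/DSS, a carcinogen followed by an agent that causes colitis. The reporter replaces Tomato with GFP where Cre has been active, so Col6a1+ CAFs were sorted as GFP+ and Col6a1− CAFs as Tomato+ cells. Both were sorted after cells with CD45, CD31, Ter119 or EpCAM on their surface had been set aside. The labels give no age. GFP marks cells with a history of Cre activity, which covers both fibroblasts and perivascular cells, and each library is a pool of tumors from several mice, so a p-value here measures the spread between such pools.

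Cells make cholesterol from acetyl-CoA through the mevalonate pathway, which leads to squalene, lanosterol and then, over a series of demethylation, isomerization and reduction steps, to cholesterol. The transcription factors SREBP-1 and SREBP-2, encoded by Srebf1 and Srebf2, switch these genes and those of fatty acid synthesis on when membrane sterol is low. SCAP escorts them to the Golgi for cleavage and the INSIG proteins hold them back when sterol is ample. The transporters ABCA1 and ABCG1 move cholesterol out of the cell to carriers such as apolipoprotein E.

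The start regions of the genes are shown first, since the 7 genes that differed between the CAFs belong to a family that shares regulators. RefSeq windows on GRCm38.p6, each of 300 bases from 250 before to 50 after an annotated start site, were matched for 28 of the 35 genes. The 5 below are 4 of the genes that were lower in Col6a1+ CAFs (Hmgcs1, Idi1, Cyp51 and Fasn) and Elovl6, which had the opposite pattern. They are written 5′ to 3′ on the strand of the gene, and capitals mark the core of the sterol regulatory element (TCACNCCAC, where N is any base) and the NF-Y box (CCAAT, which reads ATTGG on the other strand).
Hmgcs1 (chr13:119690101-119690400, plus strand): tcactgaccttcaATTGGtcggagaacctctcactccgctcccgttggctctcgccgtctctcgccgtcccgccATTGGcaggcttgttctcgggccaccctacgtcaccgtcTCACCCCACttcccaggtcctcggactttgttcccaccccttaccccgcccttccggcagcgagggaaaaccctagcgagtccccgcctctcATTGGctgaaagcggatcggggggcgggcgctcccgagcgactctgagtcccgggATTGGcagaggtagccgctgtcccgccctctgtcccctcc
Idi1 (chr13:8885356-8885655, plus strand): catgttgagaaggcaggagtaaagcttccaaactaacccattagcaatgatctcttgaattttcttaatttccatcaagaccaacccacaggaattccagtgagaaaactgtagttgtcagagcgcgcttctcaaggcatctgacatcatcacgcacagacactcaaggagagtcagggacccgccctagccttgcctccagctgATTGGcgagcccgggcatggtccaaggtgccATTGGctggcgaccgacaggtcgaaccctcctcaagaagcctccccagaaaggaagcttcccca
Cyp51 (chr5:4104648-4104947, minus strand): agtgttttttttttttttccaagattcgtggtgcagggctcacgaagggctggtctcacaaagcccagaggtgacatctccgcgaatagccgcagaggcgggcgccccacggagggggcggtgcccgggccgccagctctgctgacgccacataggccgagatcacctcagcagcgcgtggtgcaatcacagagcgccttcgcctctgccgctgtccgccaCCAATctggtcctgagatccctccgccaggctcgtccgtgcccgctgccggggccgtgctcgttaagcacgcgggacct
Fasn (chr11:120824498-120824797, minus strand): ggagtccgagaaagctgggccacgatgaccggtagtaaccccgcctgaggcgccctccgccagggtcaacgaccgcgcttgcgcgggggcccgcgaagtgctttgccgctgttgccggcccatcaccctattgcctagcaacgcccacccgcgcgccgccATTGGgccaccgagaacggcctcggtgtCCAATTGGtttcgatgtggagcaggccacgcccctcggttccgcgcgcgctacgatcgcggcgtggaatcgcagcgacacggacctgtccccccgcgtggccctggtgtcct
Elovl6 (chr3:129532136-129532435, plus strand): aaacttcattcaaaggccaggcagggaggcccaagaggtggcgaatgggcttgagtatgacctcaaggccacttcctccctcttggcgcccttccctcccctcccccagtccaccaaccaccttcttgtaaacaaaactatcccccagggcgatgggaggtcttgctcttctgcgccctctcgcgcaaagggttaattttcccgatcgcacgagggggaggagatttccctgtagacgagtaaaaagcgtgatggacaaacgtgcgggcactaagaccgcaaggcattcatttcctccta

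NF-Y is a factor known to work beside SREBP at promoters of this family. The letters CCAAT were found, on either strand, in a window of 21 of the 28 genes (75%) and of 13 of the 14 sterol synthesis genes with a window (92.9%), against 41.1% of the 27025 genes of the promoter table. By window instead of by gene, the shares were 76.5% of 17 sterol synthesis windows and 37.4% of all 32851. Hmgcs1 held 4 matches, Fasn 3, of which a pair overlaps, Idi1 2 and Cyp51 1. The window of Elovl6 held none of the motifs searched. Other genes with log2 differences above 0 did hold NF-Y boxes: 3 in Insig2, 2 in Elovl5 and 1 each in Elovl1 and Tm7sf2. Acat2 and Apoe, also above 0, held 0. Genes that were not called held them too, with 5 in Mvk and 4 in Nsdhl.

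The sterol regulatory element core matched only in Hmgcs1 among the 28 genes (3.57%), at 137 bases before the start site, against 1.44% of all genes in the table. The E-box CACGTG, which reads the same on both strands and can share some bases with the sterol regulatory element core, matched in 7 of the 28 genes (25%) and in 8.09% of all genes. It was in the windows of Hsd17b7, Sc5d, Dhcr7, Insig1, Scap, Elovl5 and Abca1. A match is only a description of the letters, and a window without one says no more than that the letters are not there.

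**Figure D1:**
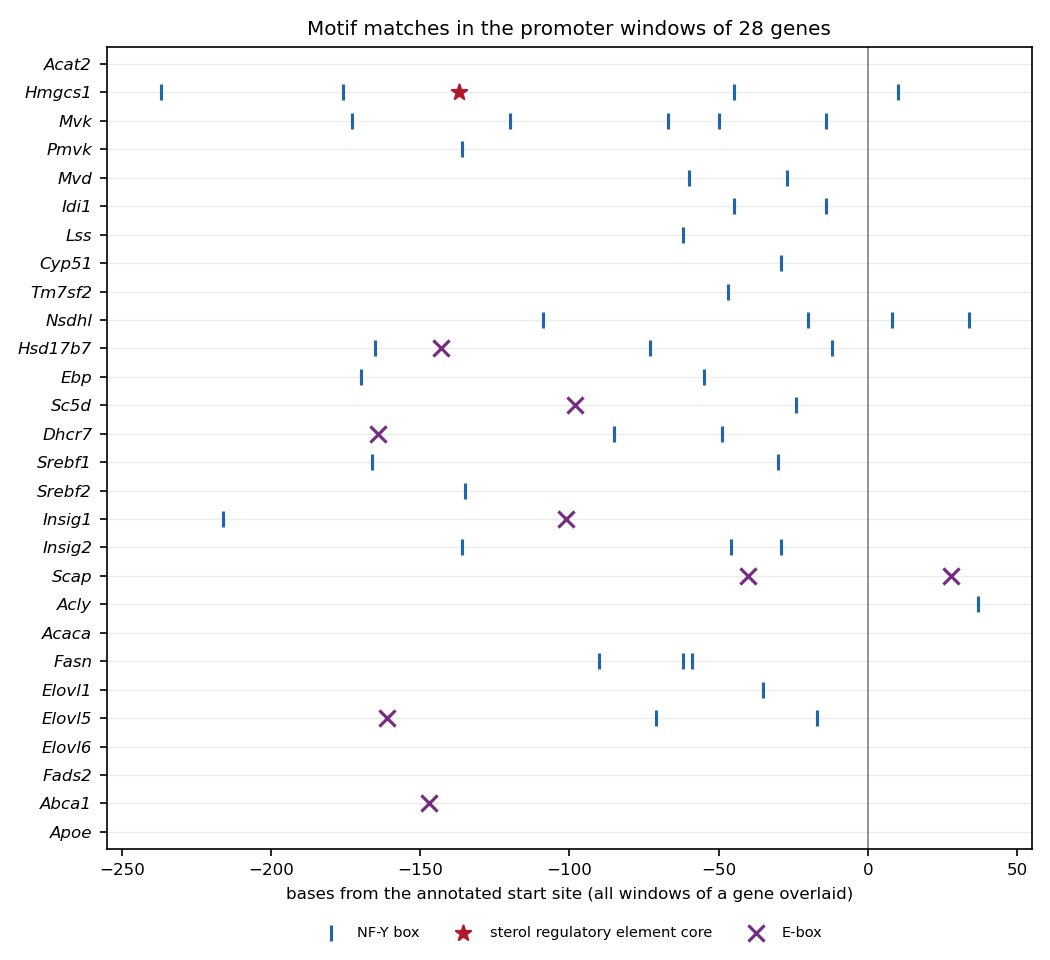
Positions of motif matches in the promoter windows of 28 genes, as bases from the annotated start site (x axis), with 1 line per gene and all windows of a gene overlaid. Blue bars are NF-Y boxes, crosses E-boxes and the star the sterol regulatory element core of Hmgcs1. Most sterol synthesis genes at the top carry an NF-Y box, while Acat2, Acaca, Elovl6, Fads2 and Apoe carry no match.

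The libraries had similar sums of normalized counts, between 3039152 and 3425249. Replicate 1 of the Col6a1+ CAFs stood apart, with 14530 genes detected against 18770 to 20511 in the other 5 libraries and the lowest array quality weight (0.357 against 0.932 to 1.61). Its summed level of 7 mural markers was 90948 normalized counts, against 41437 and 46846 in the other Col6a1+ libraries and 1147 to 2141 in the Col6a1− libraries. The 6 fibroblast markers summed to 37468 to 41177 in Col6a1+ and 6799 to 13785 in Col6a1− CAFs, and 4 of these 6 and all 7 mural markers passed the test as higher in Col6a1+ CAFs. Although EpCAM+ cells had been set aside, the 14 epithelial markers summed to 5995 to 6660 in Col6a1+ and 21056 to 36291 in Col6a1− CAFs, and 10 of the 14 passed the test as higher in Col6a1− CAFs. Epcam itself was at 1074, 884 and 615 normalized counts in Col6a1+ and at 3107, 4129 and 3730 in Col6a1− CAFs. In such bulk samples, fewer cells of a type and less RNA per cell cannot be told apart.

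Of the sterol synthesis genes, 5 were lower in Col6a1+ than in Col6a1− CAFs, by 2.86-fold in Fdft1 to 4.36-fold in Mvd, and so were the fatty acid genes Fasn and Scd2, by 2.74-fold and 2.26-fold. The 3 elongase genes Elovl1, Elovl5 and Elovl6 had their higher values in Col6a1+ CAFs and did not pass the test. Genes count as called where the limma p, adjusted over 26402 genes by Benjamini and Hochberg, was under 0.05. Of the 35 genes, 7 were called as lower in Col6a1+ CAFs (Hmgcs1, Mvd, Idi1, Fdft1, Cyp51, Fasn and Scd2) and 0 as higher, while 2.66% of all genes tested were called as higher in Col6a1+ and 1.96% as higher in Col6a1− CAFs. All 35 averaged 10 or more normalized counts over the libraries, and among the 13515 such genes, called well-detected below, 5.15% were called as higher in Col6a1+ and 3.67% as higher in Col6a1− CAFs. Before adjustment, 14 of the 35 had a p under 0.05 with lower and 2 with higher values in Col6a1+ CAFs, against 9.4% and 6.63% of all genes tested. Those shares include genes averaging under 10 normalized counts, unlike the 35.

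The libraries of the groups did not overlap for 14 of the 35 genes with the lower values in Col6a1+ CAFs and for 3 with the higher values there. Among the well-detected genes, 17.6% had such non-overlapping libraries with the lower values in Col6a1+ CAFs and 14.2% with the higher values. A looser criterion asked for a p under 0.05 before adjustment and a log2 fold change beyond 1 in either direction. By it, 13 of the 35 were lower and 1 was higher, against 8.61% and 6.09% of all genes tested, which include genes that are not well-detected. The median log2 fold change, taken as Col6a1+ minus Col6a1− on log2(normalized count + 1), was -0.92 over the 35 genes, -0.27 over all genes tested and -0.15 over the well-detected ones. The log2 fold change was below 0 for 28 of the 35 genes and above 0 for 7.

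**Figure D2:**
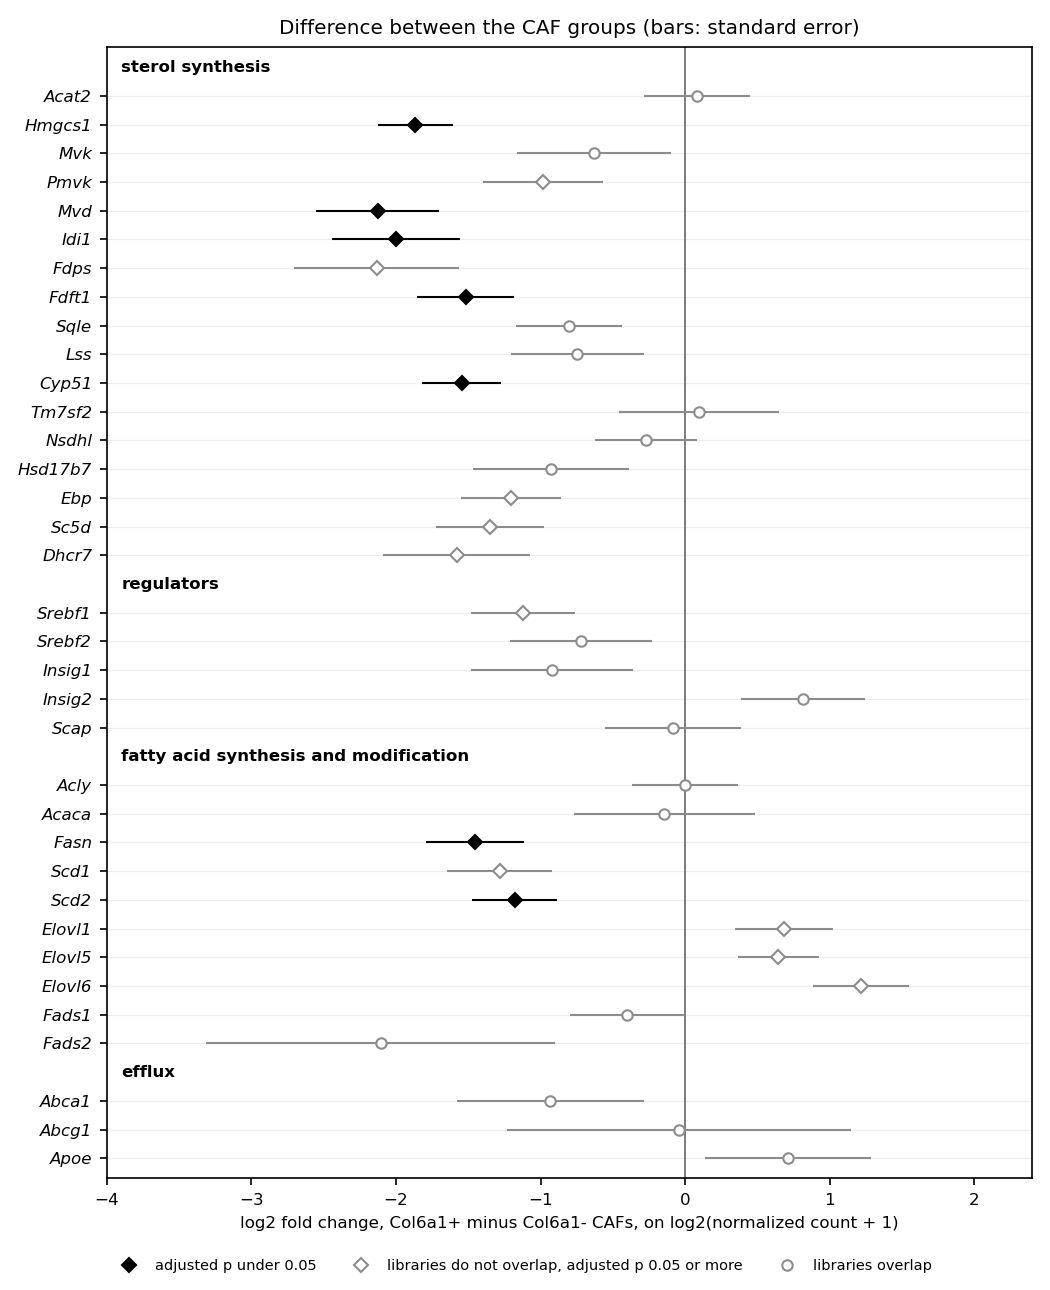
Log2 fold change of each of the 35 genes, Col6a1+ minus Col6a1− CAFs (x axis), with its standard error, grouped by role. Filled diamonds are the 7 genes with an adjusted p under 0.05, open diamonds other genes whose 3 and 3 libraries do not overlap, and open circles genes whose libraries overlap. The sterol synthesis genes lie mostly left of 0, with a median of -1.21, and Elovl1, Elovl5 and Elovl6 lie right of it.

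The labels number the libraries within each group, and pairing by these numbers is an assumption. Libraries of the same number correlated at 0.125 to 0.245, and those of different numbers at up to 0.150. When a replicate block was fitted over all genes, 0 of the 35 genes were called, as was 0 of all genes in either direction. Before adjustment, this blocked limma fit gave a p under 0.05 to 1851 genes with higher and 2567 with lower values in Col6a1+ CAFs, and Hmgcs1, Mvd and Cyp51 shared its smallest adjusted p of 0.0612. That fit held 246 genes with no residual variance at all, each with a mean of at most 6.67 normalized counts. With the block over the 13515 well-detected genes, 10 of the 35 genes were called as lower in Col6a1+ CAFs and Elovl6 as higher, beside 6.44% and 7.26% of those genes. The 10 were the 7 named above with Fdps, Ebp and Sc5d. Without replicate 1 of the Col6a1+ CAFs, 4 genes were called as lower (Hmgcs1, Cyp51, Fdft1 and Sc5d) and 0 as higher, beside 442 lower and 453 higher among all genes. Without replicate 1 of the Col6a1− CAFs 0 of the 35 were called, beside 1 lower and 11 higher among all genes, and without their replicate 3 it was 0, beside 14 and 102. Over well-detected genes, in fits chosen after seeing the data, these 3 omissions left 11, 3 and 2 of the 35 called as lower and 0 as higher. Beside these were 1101, 249 and 157 lower and 1066, 571 and 370 higher among those genes.

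Sterol synthesis was the group with the most calls. Summed over its 17 genes, Col6a1+ CAFs had 2144, 2296 and 1838 normalized counts in replicates 1 to 3 and Col6a1− CAFs 5570, 5484 and 5517. Every Col6a1− library was above every Col6a1+ library, and the mean was 2093 ± 233 (SD, n = 3) against 5524 ± 43.4, a ratio of 2.64. Of the 17 genes, 5 were called as lower in Col6a1+ CAFs, 10 had libraries that did not overlap in that direction, and 0 did so in the other. Among well-detected genes these shares were 3.67%, 17.6% and 14.2%. The sum of the epithelial markers was 4.31 times higher in Col6a1− CAFs. In replicates 1 to 3, that marker sum was 5995, 6660 and 6645 in Col6a1+ and 21056, 36291 and 25888 in Col6a1− CAFs. Like the sterol synthesis sum, it was thus higher in every Col6a1− library than in every Col6a1+ library. The part of the epithelial markers in the sterol result was not tested.

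**Figure D3:**
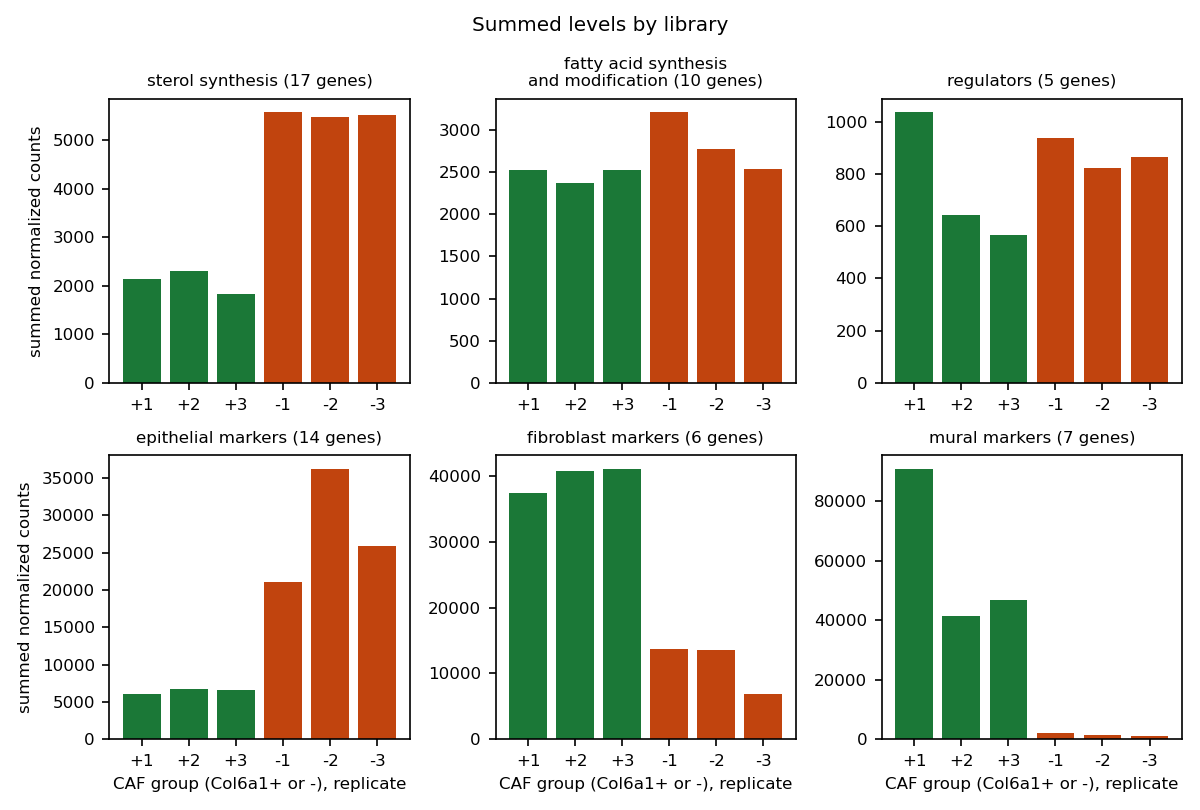
Summed normalized counts (y axes, each from 0) in the 3 Col6a1+ (green, +1 to +3) and 3 Col6a1− (orange, -1 to -3) libraries, for 3 groups of the 35 genes (upper row) and 3 lists of cell type markers (lower row). The sterol synthesis sums are 1838 to 2296 in Col6a1+ and 5484 to 5570 in Col6a1− CAFs. The regulator and fatty acid sums are closer between the groups, and the sums of the epithelial, fibroblast and mural markers do not overlap between the groups.

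Hmgcs1 (ENSMUSG00000093930, chr13:119690462-119708086, plus strand, mm10) makes HMG-CoA, an early intermediate of the pathway. It was at 430, 555 and 425 normalized counts in Col6a1+ and at 1807, 1552 and 1760 in Col6a1− CAFs. The lowest Col6a1− library was well above the highest Col6a1+ library. The log2 fold change was -1.87 ± 0.26 (SE), or 3.65-fold higher in Col6a1− CAFs, with a limma adjusted p of 0.00349. It was also called without replicate 1 of the Col6a1+ CAFs, with an adjusted p of 0.0252, and across 22 other ways of fitting it was called in 19, with a highest adjusted p of 0.0717. Those 22 include fits chosen after seeing the data, all of which called Hmgcs1.

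The next enzymes phosphorylate mevalonate and turn it into the isoprenoid units. Mvd (ENSMUSG00000006517, chr8:122433601-122443422, minus strand) decarboxylates mevalonate diphosphate and was at 54, 147 and 85 normalized counts in Col6a1+ and at 281, 535 and 384 in Col6a1− CAFs, with no overlap and a log2 fold change of -2.13 ± 0.43 (adjusted p = 0.0192). Idi1 (ENSMUSG00000058258, chr13:8885501-8892451, plus strand) interconverts the isoprenoid building blocks and was at 45, 49 and 23 against 186, 124 and 150, again with no overlap, and differed by -2.00 ± 0.44 (adjusted p = 0.0294). Over all genes, both lost the call without replicate 1 of the Col6a1+ CAFs. The limma adjusted p was then 0.0652 for Mvd and 0.0510 for Idi1. Over well-detected genes, both were called without that library (limma adjusted p = 0.0143 and 0.0099). In both kinds of fit, neither was called without replicate 3 of the Col6a1+ CAFs or replicate 2 or 3 of the Col6a1− CAFs. Over well-detected genes, the limma adjusted p was then 0.0578 to 0.0881. Of the 22 other ways of fitting, some chosen after seeing the data, 13 called Mvd and 11 called Idi1. Pmvk, the phosphomevalonate kinase, was at 45, 71 and 64 against 83, 154 and 127, which do not overlap, and its log2 difference of -0.98 ± 0.42 did not pass the test (adjusted p = 0.269).

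Fdps joins the units into farnesyl diphosphate and Fdft1 joins a pair of farnesyl groups into squalene, the first step committed to sterols. Fdft1 (ENSMUSG00000021273, chr14:63145153-63177793, minus strand) was at 133, 125 and 81 normalized counts in Col6a1+ and at 311, 279 and 371 in Col6a1− CAFs. These do not overlap, and the log2 fold change was -1.52 ± 0.34 (limma adjusted p = 0.0299). Over all genes, Fdft1 was called without replicate 1 of the Col6a1+ CAFs (limma adjusted p = 0.0428). It was not called there without any other library (limma adjusted p = 0.0866 to 0.157) or with the block (0.119). Of the 22 other ways of fitting, some chosen after seeing the data, 12 called Fdft1. Fdps was at 20, 75 and 68 against 116, 307 and 257, also without overlap, and its larger difference of -2.13 ± 0.57 missed the threshold (adjusted p = 0.0650). Without replicate 1 of the Col6a1+ CAFs, its lowest library, the difference was -1.54. The limma adjusted p for Fdps was then 0.133 over all genes and 0.0433 over well-detected genes. It passed in the blocked fit over well-detected genes (adjusted p = 0.00771).

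Cyp51 (ENSMUSG00000001467, chr5:4081145-4104746, minus strand), the lanosterol demethylase, was at 398, 335 and 292 normalized counts in Col6a1+ and at 1141, 927 and 921 in Col6a1− CAFs. All 3 Col6a1− libraries were above all Col6a1+ libraries, with a log2 fold change of -1.55 ± 0.27 and a limma adjusted p of 0.0110. It was also called without replicate 1 of the Col6a1+ CAFs (adjusted p = 0.0269), but not over all genes without any of the other 5 libraries, where the limma adjusted p was 0.0542 to 0.0977, or with the block (0.0612). Of the 22 other ways of fitting, 16 called it, among them all those chosen after seeing the data.

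The late enzymes Ebp, Sc5d and Dhcr7 convert the sterol nucleus to its final form. Ebp, the sterol isomerase, was at 109, 227 and 168 normalized counts in Col6a1+ and at 392, 411 and 320 in Col6a1− CAFs. Sc5d, the desaturase, was at 186, 119 and 80 against 362, 313 and 264. Dhcr7, which reduces 7-dehydrocholesterol, was at 17, 20 and 36 against 85, 65 and 65. None of the 3 had overlapping libraries, and their log2 fold changes of -1.21, -1.35 and -1.58 had limma adjusted p-values of 0.0843, 0.0734 and 0.125. Without replicate 1 of the Col6a1+ CAFs, Sc5d was called (adjusted p = 0.0418).

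The libraries of the other 7 enzymes overlapped, and none was called. Sqle and Lss, which make and close the epoxide of squalene, had log2 fold changes of -0.80 and -0.74, Hsd17b7 had -0.93 (-1.53 without replicate 1 of the Col6a1+ CAFs), and Mvk and Nsdhl had -0.63 and -0.27. Acat2, which condenses acetyl-CoA at the entry to the pathway, was at 78 to 100 normalized counts in Col6a1+ and 78 to 93 in Col6a1− CAFs, with a log2 difference of 0.08 ± 0.37 (SE). Tm7sf2, a sterol reductase, ranged from 28 to 103 within the Col6a1− libraries alone, and its log2 difference of 0.10 ± 0.55 changed sign with the library left out.

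**Figure D4:**
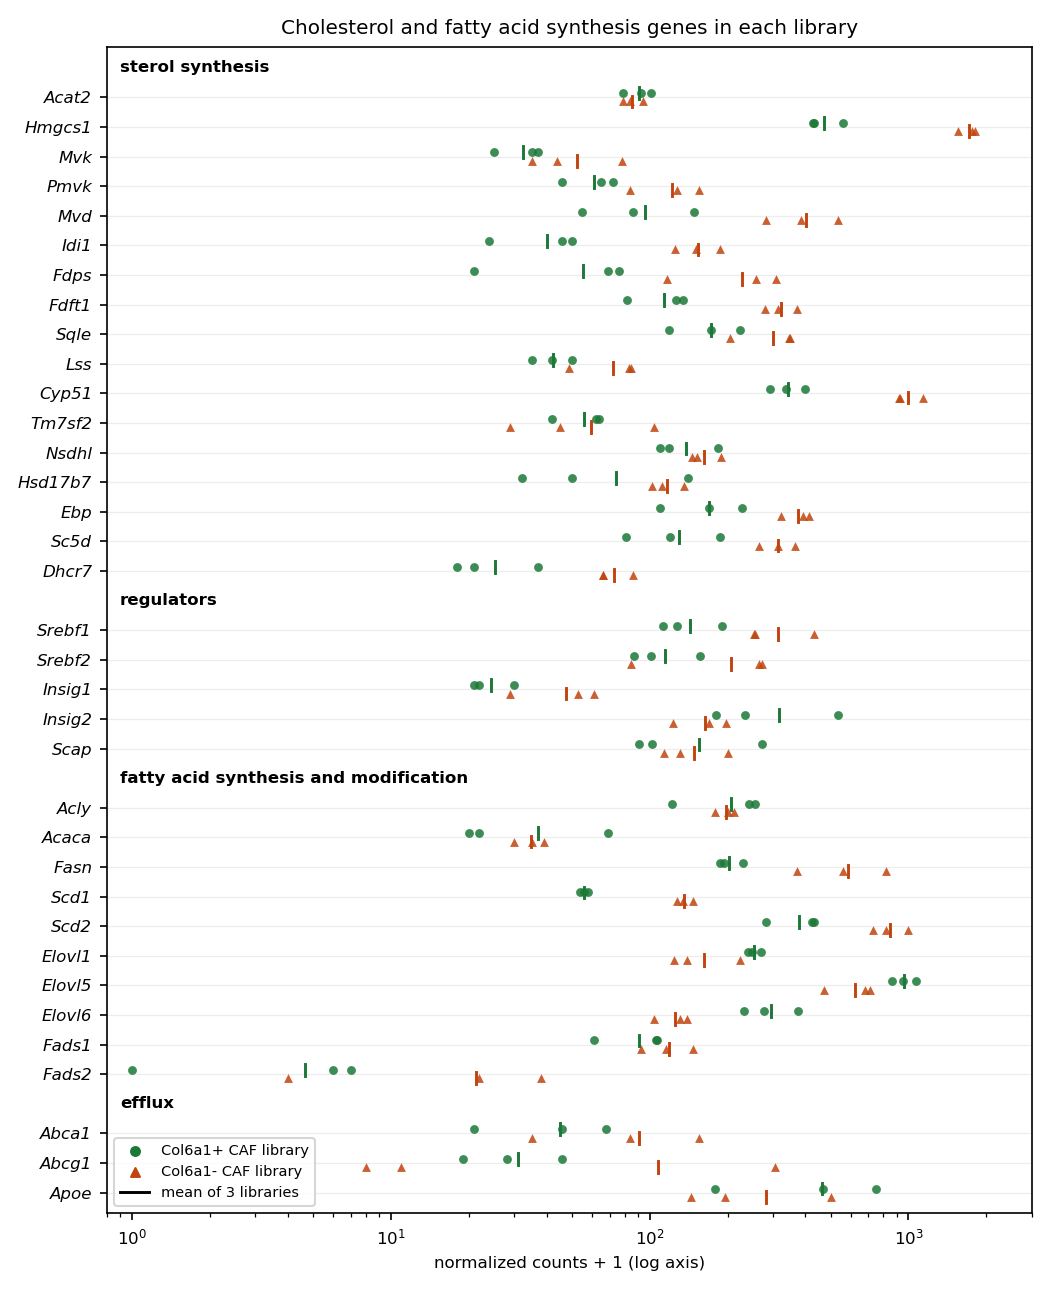
Normalized counts plus 1 (x axis, log scale) of the 35 genes in each library, with green circles for Col6a1+ CAFs, orange triangles for Col6a1− CAFs and short vertical lines for the mean of 3 libraries. The symbols of Hmgcs1, Mvd, Idi1, Fdps, Fdft1 and Cyp51 separate, from 1552 to 1807 against 425 to 555 in Hmgcs1, while those of Acat2, Tm7sf2 and Acly mix.

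Several of these values share sequence with other genes, and the sources used here do not state whether reads were counted by strand. Mvd lies within Gm20388 on the opposite strand, whose mean went the other way, from 444 normalized counts in Col6a1− to 815 in Col6a1+ CAFs. The 3′ end of Fdft1 overlaps that of Ctsb on the opposite strand by 767 bases, and the mean of Ctsb was 703 in Col6a1− and 1171 in Col6a1+ CAFs. Cyp51 and Akap9 overlap by 166 bases on opposite strands, and Akap9 was at 49, 96 and 55 in Col6a1+ and at 161, 67 and 366 in Col6a1− CAFs. The last 300 bases of the Fdps transcript are 99.3% identical to Gm3571, which was at 10, 66 and 57 in Col6a1+ and 86, 264 and 156 in Col6a1− CAFs. Reads of Fdps may thus be split between the copies, and both rows were lower in every Col6a1+ library.

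None of the 5 regulators was called. Srebf1 was at 126, 189 and 112 normalized counts in Col6a1+ and at 430, 255 and 253 in Col6a1− CAFs, which do not overlap, and its log2 fold change was -1.12 ± 0.36 (limma adjusted p = 0.122). Srebf2 was at 86, 155 and 100 against 84, 264 and 270, so replicate 1 of the Col6a1− CAFs lay with the Col6a1+ libraries, and the log2 difference was -0.72 ± 0.49 (adjusted p = 0.534). The transcripts of both SREBP genes thus had lower means in Col6a1+ CAFs, without passing the test.

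Insig1, itself a known SREBP target, was at 21, 29 and 20 normalized counts in Col6a1+ and at 28, 52 and 60 in Col6a1− CAFs. The groups overlapped between 28 and 29, with a log2 difference of -0.92 ± 0.56 (limma adjusted p = 0.476). Its relative Insig2 had the opposite sign, at 531, 180 and 232 against 197, 122 and 169, with a log2 difference of 0.81 ± 0.43 (adjusted p = 0.402). The high value came from replicate 1 of the Col6a1+ CAFs, without which the difference was 0.35. Scap was at 271, 90 and 101 against 200, 130 and 113, where replicate 1 was the highest of both groups, and its log2 difference of -0.08 ± 0.47 became -0.58 without replicate 1 and 0.21 without replicate 2 of the Col6a1+ CAFs.

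Among the 10 genes of fatty acid synthesis and modification, Fasn and Scd2 were called, both as lower in Col6a1+ CAFs. Fasn (ENSMUSG00000025153, chr11:120805846-120824547, minus strand), the fatty acid synthase, was at 228, 186 and 192 normalized counts in Col6a1+ and at 815, 370 and 559 in Col6a1− CAFs. The groups did not overlap and the log2 fold change was -1.45 ± 0.34 (limma adjusted p = 0.0384), although the Col6a1− libraries themselves differed widely. Scd2 (ENSMUSG00000025203, chr19:44293676-44306864, plus strand), a stearoyl-CoA desaturase that puts a double bond into saturated fatty acids, was at 429, 423 and 281 against 991, 820 and 730. It differed by -1.18 ± 0.29 (adjusted p = 0.0492). Over all genes, neither passed without replicate 1 of the Col6a1+ CAFs, with limma adjusted p-values of 0.0781 and 0.0679. Over well-detected genes, both were called without that library. With any other library left out there, Scd2 was not called, and Fasn was called only without replicate 2 of the Col6a1− CAFs. Over all genes, neither was called with any library left out. Of the 22 other ways of fitting, some chosen after seeing the data, 10 called Fasn and 9 called Scd2.

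Scd1, the related desaturase, was at 57, 53 and 55 normalized counts in Col6a1+ and at 126, 134 and 146 in Col6a1− CAFs. Its libraries were close to each other within each group and did not overlap, with a log2 fold change of -1.28 ± 0.36 that did not pass the test (limma adjusted p = 0.0791). The enzymes that act before the synthase overlapped between the groups. Acly, which makes cytosolic acetyl-CoA from citrate, was at 121, 242 and 254 against 178, 200 and 210 (log2 difference 0.00 ± 0.37), and Acaca, the acetyl-CoA carboxylase, was at 68, 21 and 19 against 38, 29 and 34 (-0.14 ± 0.63), and the sign of both turned with the library left out.

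The 3 elongases among the 35 genes, which lengthen fatty acids after the synthase, had their higher values in Col6a1+ CAFs, and none was called. Elovl6, which acts on saturated and monounsaturated chains, was at 374, 231 and 276 normalized counts in Col6a1+ and at 139, 103 and 130 in Col6a1− CAFs. Its log2 fold change was 1.22 ± 0.33 (limma adjusted p = 0.0689, and 0.0273 in the blocked fit over well-detected genes). Elovl5, which acts on polyunsaturated chains, was at 951, 859 and 1070 against 681, 708 and 472 (log2 difference 0.65 ± 0.28, adjusted p = 0.284). Elovl1, which makes very long saturated chains, was at 238, 248 and 269 against 123, 223 and 138 (0.69 ± 0.34, adjusted p = 0.358). The libraries of all 3 were apart between the groups.

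The desaturases of polyunsaturated fatty acids, Fads1 and Fads2, overlapped between the groups. Fads1 had a log2 difference of -0.40 ± 0.40. Fads2 was near the floor, at 0, 6 and 5 normalized counts in Col6a1+ and at 3, 37 and 21 in Col6a1− CAFs, and its log2 difference of -2.11 ± 1.21 had an adjusted p of 0.438 and ran from -3.06 to -1.21 with a library left out.

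The 3 genes of efflux overlapped between the groups and none was called. Abca1 was at 20, 45 and 67 normalized counts in Col6a1+ and at 154, 34 and 83 in Col6a1− CAFs (log2 difference -0.93 ± 0.65, limma adjusted p = 0.542). Abcg1 was at 18, 45 and 27 against 7, 10 and 303. Replicate 3 of the Col6a1− CAFs thus decided its difference, which was -0.04 ± 1.19 with that library and 1.63 without it. Apoe was at 178, 749 and 465 against 143, 503 and 195, where replicate 2 was the highest of both groups, with a log2 difference of 0.71 ± 0.57 (adjusted p = 0.603).

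**Figure D5:**
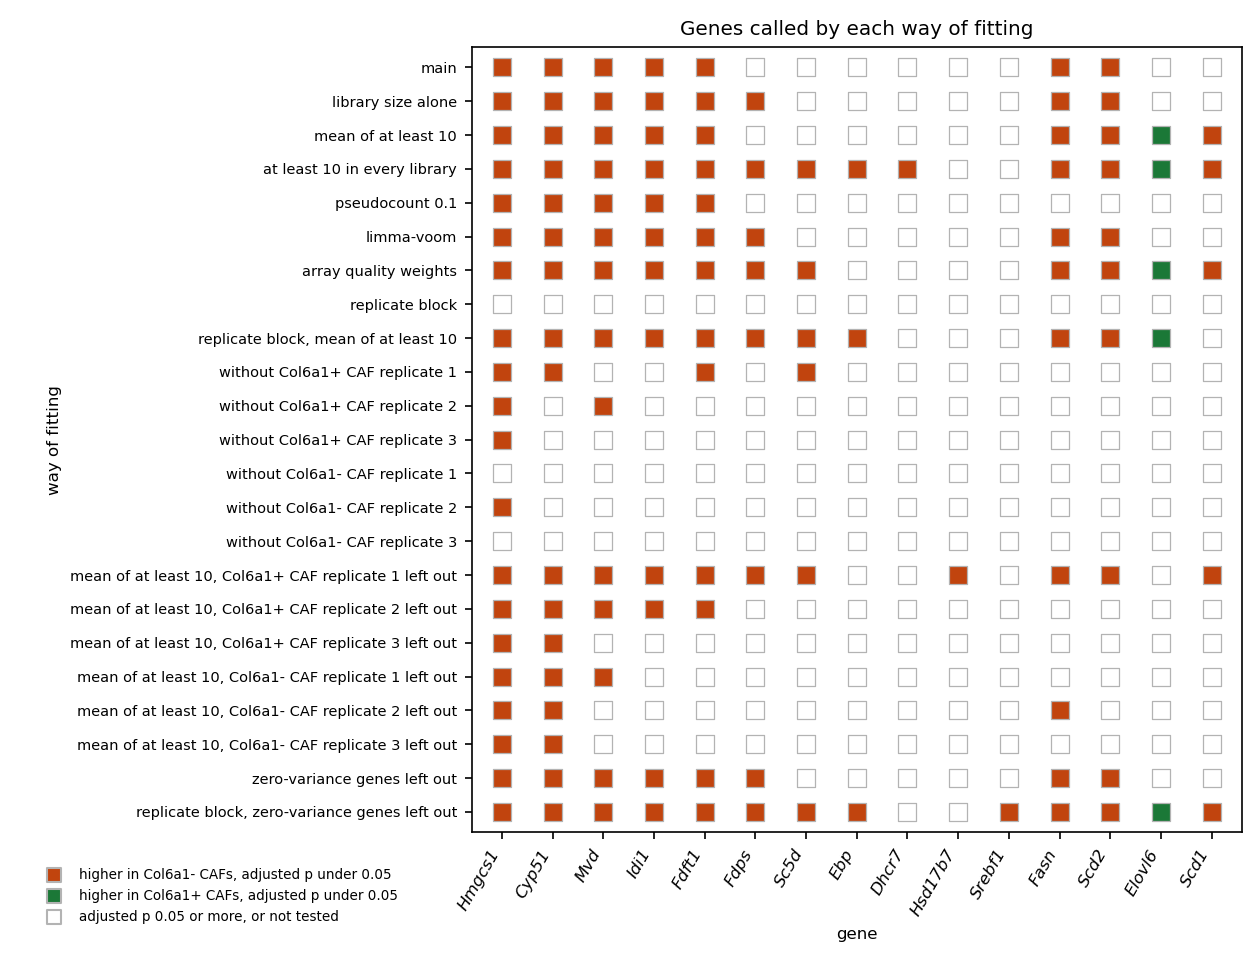
Genes of the set with an adjusted p under 0.05 (filled squares) in the main analysis (first row) and in 22 other ways of fitting (rows). Orange squares are genes higher in Col6a1− and green squares genes higher in Col6a1+ CAFs. Hmgcs1 was called in 19 and Cyp51 in 16 of the 22, whereas Scd2 was called in 9, and the block over all genes called none. The 22 include fits chosen after seeing the data, all of which called Hmgcs1 and Cyp51.

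A further 50 genes of the same pathways, which are not among the 35 and were also chosen with earlier results known, were examined in the same fit. Of these, 47 were tested, since Idi2, Elovl2 and Elovl3 were at 0 in every library, and 4 were called as lower and 0 as higher in Col6a1+ CAFs. These compare with 1.96% and 2.66% of all genes tested, and the median log2 fold change was -0.53 against -0.27 over all genes. Msmo1, a sterol oxidase that follows Cyp51, was at 267, 310 and 387 normalized counts in Col6a1+ and at 884, 1071 and 824 in Col6a1− CAFs (log2 fold change -1.53, limma adjusted p = 0.0129). Acsl3, which activates long-chain fatty acids, was at 104, 131 and 89 against 562, 481 and 694 (-2.41, adjusted p = 0.00232), and the elongase Elovl7 was at 33, 46 and 21 against 178, 155 and 147 (-2.29, adjusted p = 0.0142). Elovl7 thus went the other way from Elovl1, Elovl5 and Elovl6. Mlxipl, which encodes the carbohydrate-responsive factor ChREBP, was at 0, 2 and 0 against 25, 17 and 38 (adjusted p = 0.0370), which is at least 8.89-fold lower when set against a floor of 3 counts per library.

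Among further genes of the list, Npc1, Stard4, Slc25a1, Acsl1, Scd3, Hacd2, Tecr and Dgat2 were lower in every Col6a1+ library without being called, with log2 differences from -2.53 in Slc25a1, the mitochondrial citrate carrier (-1.33 without replicate 1 of the Col6a1+ CAFs), to -0.88 in Npc1, which moves cholesterol out of lysosomes. Nr1h3, Acsl4 and Lpin1 were higher in every Col6a1+ library and not called. Of the 47 genes tested, 14 had libraries that did not overlap with lower and 3 with higher values in Col6a1+ CAFs. Among well-detected genes, 17.6% and 14.2% did so. Nr1h3, which encodes the sterol sensor LXR alpha, was at 98, 76 and 101 normalized counts in Col6a1+ and at 25, 33 and 25 in Col6a1− CAFs, a log2 difference of 1.69 ± 0.44 (limma adjusted p = 0.0599).

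Markers of the other cell types searched were at low levels in both groups. The immune markers (12 rows for 11 genes) summed to 30 to 55 normalized counts in Col6a1+ and 62 to 127 in Col6a1− CAFs, the adipocyte markers to 5 to 43 and 3 to 17 with Adipoq and Lep at 0 in every library, and the glial markers to 55 to 73 and 29 to 76. The 7 endothelial markers summed to 128 to 342 and 129 to 320. Of these, 1, Tie1, was called as higher in Col6a1+ CAFs, while the other 6 had log2 fold changes below 0 and were not called. The 6 proliferation genes summed to 347 to 631 in Col6a1+ and 505 to 2056 in Col6a1− CAFs, and 0 were called. The upper end came from Tyms, at 1510 in replicate 3 of the Col6a1− CAFs and at 32 to 54 in the other libraries. Of the 6, 5 had log2 fold changes below 0 and 1, Cdk1, above 0. In 3 of them, Birc5, Mki67 and Top2a, every Col6a1+ library was below every Col6a1− library, as in 17.6% of the well-detected genes. The part of these lists in the results was not tested.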

How the data were processed

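The 3′ mRNA sequencing covered 3 Col6a1+ and 3 Col6a1− CAF libraries, grouped and numbered by their labels. The authors mapped the reads to mm10 with TopHat2, mapped the remainder with Bowtie2, and used metaseqR to summarize the alignments per gene (GenomicRanges) and to normalize the counts (DESeq). Values are the deposited log2 of the normalized count plus 1, and with a tolerance of 1e-06 all (100%) are whole normalized counts. The file's 6 other per-sample columns and the authors' own fold changes and p-values were not used. The number of reads behind each library is not given by the normalized counts, and 0 was read as up to 3 counts per library, a floor for counting error only.

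The 35 genes, the role groups, the further pathway genes, the markers and the motifs were chosen with earlier results of these data known. With limma 3.58.1 in R 4.3.3, the 2 groups were compared in the 26402 genes whose counts summed to 1 or more, using variances that follow the mean (prior degrees of freedom 6.48, residual 4). The two-sided p-values were adjusted after Benjamini and Hochberg. A fold change is on the log2(normalized count + 1) scale and understates the change of low genes.

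Values per library are given for genes that were called, whose libraries did not overlap, or that are regulators or efflux genes, and for some other members where a sentence describes them. The others are given by range or fold change, and some genes of the further list are not reported here. Pairing by replicate number was checked over 13515 genes averaging 10 or more normalized counts: deviations from the group means correlated at 0.245, 0.125 and 0.144 between libraries of the same number and at -0.245 to 0.150 between others (0.150 for Col6a1+ replicate 2 with Col6a1− replicate 3), so each pair was over 0.1 and a replicate block was fitted too. The alternatives were library size alone, a mean of at least 10, at least 10 in every library, a pseudocount of 0.1, limma-voom, array quality weights, the block, a looser criterion and leaving out each library. Leaving out libraries among genes averaging 10 or more, and leaving out genes without residual variance, were chosen after seeing the data. Promoter windows came from RefSeq on GRCm38.p6. Transcript ends (GENCODE M21) were compared with BLAST 2.17.0 at 95% identity or more over at least 100 bases, and scripts ran in Python 3.11.15 with pandas 2.3.3 and Matplotlib 3.10.9.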

Additional observations from a re-analysis of the deposited data

How the results depend on the processing

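Relative to the 7 genes of the set called as higher in Col6a1− and 0 in Col6a1+ CAFs, 12 and 1 were called where each library had to reach 10 normalized counts (beside 458 and 696 of all 9473 such genes), 13 and 1 by the looser criterion, 0 and 0 with the replicate block over all genes, and 12 and 1 with the block once 246 genes without residual variance were left out. The 1 gene was Elovl6, which was also called over well-detected genes, with array weights and with the block over well-detected genes (1 in each). Leaving out each library gave 0 to 4 genes higher in Col6a1− CAFs over all genes and 2 to 11 over well-detected genes (averaging 10 or more). The block over all genes held those 246 genes, against 26 without the block, and had 2.59 prior degrees of freedom against 6.48. The median log2 fold change stayed below 0, from -1.01 to -0.79 over the set and from -1.37 to -1.06 over sterol synthesis with each library left out.

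Over all genes, against 703 called as higher in Col6a1+ and 517 in Col6a1− CAFs, the second count was 336 with a pseudocount of 0.1, 1006 with limma-voom, 969 with array weights and 871 with the block over well-detected genes. The replicate block called 0 and 0, the block without those 246 genes 1332 and 1741, and the looser criterion 1607 and 2273. Leaving out each library gave 11 to 453 and 1 to 442 over all genes, and 370 to 1066 and 157 to 1101 over well-detected genes.

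With each library left out, signs turned for 5 of the 35 genes, all with log2 fold changes near 0: Tm7sf2 ran from -0.31 to 0.61, Scap from -0.58 to 0.21, Acly from -0.19 to 0.34, Acaca from -0.72 to 0.18 and Abcg1 from -0.99 to 1.63. Acly was at 0.23 and Abcg1 at 0.19 with array weights, and Abcg1 at 0.0085 with a pseudocount of 0.1. The cause was not tested.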
